A study of Mus musculus with 12 samples.

Results

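Plasma protein genes were taken from a table of liver mRNA levels by a fixed pattern of gene symbols, which selected 42 of the 3799 genes in a table whose rows the authors had already selected. The pattern covers serpins (13 genes), complement components and regulators (9), apolipoproteins (8), clotting and fibrinolysis factors (7), inter-alpha-inhibitor heavy chains (3) and the carriers *Trf* and *A1bg* (2). The pattern also names albumin, transthyretin, haptoglobin, hemopexin and *Apoe*, which are not analysed here. A few genes that carry a serpin name are not plasma proteins in the usual sense, since *Serpinh1* encodes a collagen chaperone of the endoplasmic reticulum and *Serpinb9* an intracellular inhibitor of granzyme B.

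Hepatocytes make and secrete most of the protein in blood plasma. Apolipoproteins coat lipoprotein particles, clotting factors and plasminogen form and dissolve the fibrin clot, complement proteins mark and lyse microbes, and serpins trap proteases in an irreversible complex or, in a few cases, carry hormones. Transcription of these genes in hepatocytes depends on liver-enriched factors such as HNF1 and C/EBP proteins, and a subset responds to inflammation through STAT3.

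The livers came from male C57BL/6J mice, 8 weeks old at the start, with 3 mice and 3 libraries in each of 4 groups. Saline mice (vehicle in the labels) received saline injections. DOX mice received doxorubicin, a DNA-damaging anthracycline that induces senescence, at 10 mg/kg into the peritoneum on days 0 and 7, followed by the oral vehicle. DOX + K35 and DOX + K27 mice received the same doxorubicin and, from day 2, 50 mg/kg K35 or its analog K27 into the stomach every other day. All livers were collected on day 20. Oral dosing is described for the doxorubicin-treated mice alone, and whether Saline mice were given the oral vehicle is not given in the sources used here, so doxorubicin and oral dosing may not be told apart in DOX against Saline. No group received a compound without doxorubicin. The table gives FPKM, a level scaled to transcript length and to the size of the library, and because no read counts were used here, the depth of each library is unknown and no counting interval is given.

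The liver label was borne out by the hepatocyte genes in the table (*Cyp2e1*, *Cyp3a11*, *Cps1*, *Tat*, *Hpd* and *Tdo2*), whose summed level ranged from 1509 FPKM in DOX library B4 to 8434 FPKM in DOX + K35 library C4. Mitochondrially encoded transcripts took 48.2% to 61.9% of the summed FPKM in Saline, 62.2% to 83.3% in DOX, 37.9% to 48.7% in DOX + K35 and up to 68.0% in DOX + K27. FPKM is relative to the whole library, so levels are also given below against other genes and under other scalings, and the part of the mitochondrial share in the results was not tested. Library B4 stood apart from the other DOX libraries and held the lowest value of all 12 libraries for 30 of the 42 plasma protein genes. Levels in B4 were low over the whole table. Its median-ratio factor, the median over genes of its level against their geometric mean over the libraries, was 0.635, against 0.963 to 1.19 elsewhere. After division by that factor, B4 held the highest value for *Apoc1*, *Apoc3* and *Apoc4*. The share of all genes that were lowest in B4 is not given here. DOX + K35 library C4 and Saline replicate 3 stood apart for a few acute phase and serpin genes, given below. DOX libraries B3 and B4 and DOX + K35 library C4 are tied by name to their group and not to a numbered mouse.

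Each gene was tested with limma on log2(FPKM + 1) in 1 fit over all 12 libraries, and p-values were adjusted by the Benjamini-Hochberg method over the 3317 genes whose mean reached 1 FPKM. These genes had been selected by the authors by a rule not given in the sources used here, which may have used differences between these groups. Adjusted p-values and shares of all genes tested hold for that selection alone. The filter on the mean kept 41 of the 42 plasma protein genes and left out *C1s2*. Low genes change by more than their log2 fold change states, because of the added 1. The median of all genes tested was itself shifted, by -0.34 in DOX against Saline, by 0.46 in DOX + K35 against DOX, by 0.36 in DOX + K27 against DOX and by 0.095 in DOX + K35 against DOX + K27, and "relative" below means after subtraction of that median.

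The summed level of the 42 genes was 32238 ± 1902 FPKM in Saline (mean ± SD, n = 3 here and below), 27340 ± 7269 with DOX alone, 33342 ± 1719 with added K35 and 34004 ± 1230.4 with added K27. As a share of all nuclear-encoded expression in the table the sum was 23.8 ± 1.77%, 24.2 ± 5.04%, 24.0 ± 0.964% and 26.3 ± 1.09% in the same order, and in the exact two-sided permutation test only DOX + K35 against DOX + K27 reached p = 0.1, the smallest that 3 against 3 libraries allow. The difference between DOX and Saline was 0.357 percentage points and between DOX + K35 and DOX -0.181 points (exact p = 1 for each). All 3 of these differences turned sign under other settings. Between DOX + K35 and DOX + K27 it was -2.28 points, 1.40 points without the 20 highest genes and 2.77 points with the mitochondrial transcripts kept in the total. The classes within that share differed in direction.

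Apolipoproteins made up 55.6 ± 3.58% of the summed plasma protein FPKM with Saline, 77.3 ± 10.7% with DOX alone, 43.2 ± 1.37% with added K35 and 62.9 ± 6.88% with added K27. The DOX libraries lay above all Saline libraries, the DOX + K35 libraries lay below all libraries of every other group, and the DOX + K27 libraries overlapped those of DOX and Saline. The other 5 classes together summed to 14669, 14184 and 13987 FPKM in the Saline libraries and 11439, 5998 and 2589.6 in the DOX libraries. They summed to 18924, 19458 and 18422 FPKM in the DOX + K35 libraries and 13866, 14496 and 9593 in the DOX + K27 libraries. This sum was lower in every DOX library than in any Saline library and higher in every DOX + K35 library than in any other library (exact two-sided permutation test, p = 0.1 for each, the smallest possible). The stacked plot of class sums shows the same libraries side by side.

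**Figure D1:**
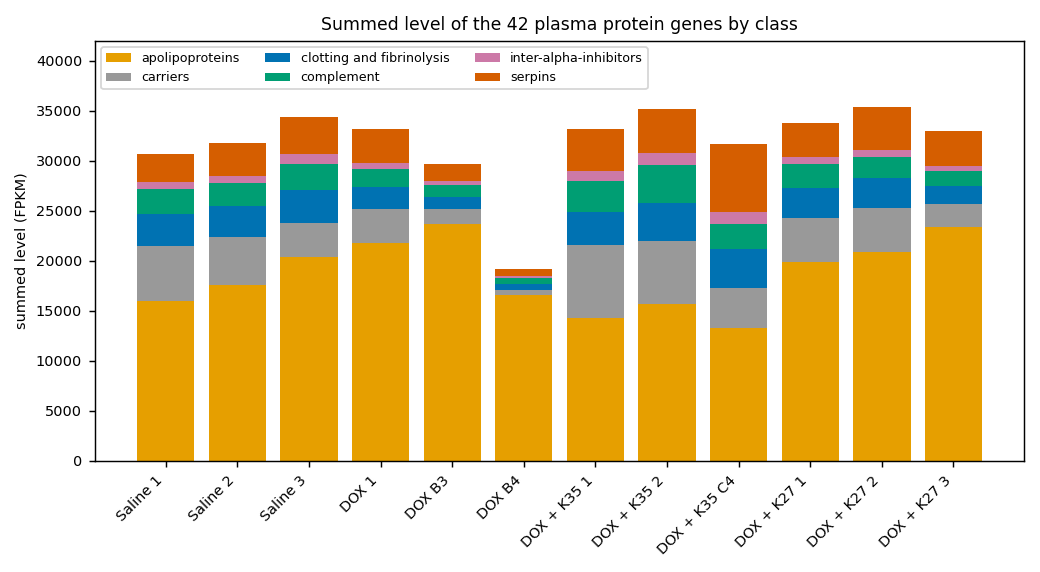
Summed FPKM of the 42 plasma protein genes in each of the 12 libraries, stacked by class, with libraries on the horizontal axis. The apolipoprotein segment stays between 13279 and 23644 FPKM, while the segments above it shrink in DOX and are tallest in DOX + K35.

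Apolipoproteins A-I, A-II, C-I, C-III and C-IV are small exchangeable proteins of HDL and triglyceride-rich particles, and *Apoa1* and *Apoa2* were the most abundant genes of the set. *Apoa1*, the main protein of HDL, was at 5037, 5151 and 5617 FPKM (Saline), 9371, 7435 and 5465 (DOX), 6007, 5597 and 4464 (DOX + K35) and 7447, 8467 and 10156 (DOX + K27). Its Saline libraries were close together, its highest value was in DOX + K27, and the DOX and DOX + K35 libraries overlapped on the FPKM scale. With median-ratio scaling the DOX libraries (8856, 7572 and 8612) lay above all Saline (4777, 4930 and 5831) and all DOX + K35 libraries (5338, 5472 and 3765). The log2 fold change of *Apoa1* was 0.46 (SE 0.29, adjusted p = 0.216) in DOX against Saline and -0.45 (SE 0.29, adjusted p = 0.2) in DOX + K35 against DOX, neither past the threshold. *Apoa2*, the second protein of HDL, was at 5859, 6481 and 7396 FPKM with Saline, 6416, 8274 and 5175 with DOX alone, 4183, 5316 and 3489 with added K35 and 6578, 6764 and 6931 with added K27. The 3 DOX + K35 libraries and DOX library B4 were the 4 lowest, and the change against DOX was -0.61 (SE 0.29, adjusted p = 0.0866).

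*Apoc1*, which encodes an inhibitor of lipoprotein uptake, was at 2079, 2344 and 3154 FPKM in Saline and 2588, 3909 and 3205 in DOX. It was at 1434, 1799 and 1509.8 FPKM in DOX + K35, below every other library, and at 2473, 2301 and 2653 in DOX + K27. *Apoc1* fell in DOX + K35 against DOX, with a log2 fold change of -1.02 (SE 0.30, adjusted p = 0.011), and was the single plasma protein gene that passed the threshold downwards in that comparison. The change of *Apoc1* in DOX against Saline was 0.36 (SE 0.30, adjusted p = 0.343). *Apoc3*, an inhibitor of lipoprotein lipase, and *Apoc4* also had their highest group mean in DOX and their lowest in DOX + K35, with *Apoc4* at 765 ± 166 FPKM in DOX and 481 ± 64.9 in DOX + K35, and neither passed in any comparison on the FPKM scale. With median-ratio scaling, or with the sum without the 20 highest genes as the scale, 5 apolipoproteins (*Apoa1*, *Apoa2*, *Apoc1*, *Apoc3* and *Apoc4*) passed as lower in DOX + K35 than in DOX. The share of all genes that passed as lower under these settings is not given here.

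The remaining 3 apolipoprotein genes were lower on average in DOX and highest on average in DOX + K35 (*Apob*, *Apom*) or Saline (*Apoa5*). *Apob*, the structural protein of VLDL and LDL, was at 254, 211 and 130.3 FPKM (Saline), 154, 114 and 48.4 (DOX), 309, 308 and 226 (DOX + K35) and 179, 178 and 105 (DOX + K27), and rose in DOX + K35 against DOX by 1.54 (SE 0.43, adjusted p = 0.00916). *Apom*, the HDL carrier of sphingosine-1-phosphate, was at 113, 96.7 and 32.4 FPKM in Saline and 56.3, 24.4 and 11.5 in DOX. It was at 165, 189 and 102 FPKM in DOX + K35 and 84.2, 61.0 and 34.6 in DOX + K27. *Apom* had the largest rise of all plasma protein genes in DOX + K35 against DOX, 2.5 (SE 0.57, adjusted p = 0.00567), and each of its DOX + K35 libraries was above each DOX library. Its difference in DOX against Saline was -1.45 (SE 0.57, adjusted p = 0.0698), with Saline replicate 3 inside the DOX range. *Apoa5*, an activator of lipoprotein lipase, was lower in every DOX library (399, 363 and 215 FPKM) than in any Saline library (634, 688 and 644 FPKM) and rose in DOX + K35 against DOX by 0.92 (SE 0.35, adjusted p = 0.0347).

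The ratio of *Apoa1* to *Trf* within a library does not depend on how that library was scaled. It was 0.924, 1.11 and 1.85 in the Saline libraries, 2.79, 4.89 and 11.1 in the DOX libraries, 0.833, 0.917 and 1.11 in the DOX + K35 libraries and 1.73, 1.95 and 4.58 in the DOX + K27 libraries. The 3 DOX libraries lay above all Saline and all DOX + K35 libraries. The ratio of *Apoc1* to *C3* showed the same separation, with 1.74, 2.06 and 2.69 in Saline, 3.50, 8.88 and 18.9 in DOX and 0.876, 0.831 and 1.03 in DOX + K35.

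*Trf* encodes transferrin, the iron carrier of plasma, and was the third most abundant plasma protein gene. It was at 5454, 4626 and 3038 FPKM with Saline, 3356, 1521 and 493 with DOX alone, 7213, 6103 and 4011 with added K35 and 4297, 4345 and 2216 with added K27. *Trf* rose in DOX + K35 against DOX by 2.04 (SE 0.56, adjusted p = 0.00821), with every DOX + K35 library above every DOX library, and its difference in DOX against Saline was -1.64 (SE 0.56, adjusted p = 0.0612). Of the 50-base stretches of its transcripts, 79.8% also occur in the readthrough gene *Gm20425*, so reads could have been split between the pair. *A1bg*, a plasma glycoprotein of the immunoglobulin superfamily, varied widely within groups, at 42.2, 188 and 358 FPKM (Saline), 76.8, 21.6 and 14.6 (DOX), 66.9, 156 and 2.44 (DOX + K35) and 136, 96.7 and 76.6 (DOX + K27). Its lowest value in the series was in DOX + K35 library C4, its difference in DOX against Saline was -2.25 (SE 1.10, adjusted p = 0.121), and *A1bg* did not pass in any comparison.

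All 7 clotting and fibrinolysis genes were lower on average in DOX than in Saline and higher in DOX + K35 than in DOX. All 7 passed the threshold in the latter comparison, where 46% of all genes tested rose. *Fga*, the alpha chain of fibrinogen, was at 1265, 1201 and 1639 FPKM with Saline, 895, 376 and 155 with DOX alone, 1255, 1612 and 1915 with added K35 and 1183, 1298 and 678 with added K27. Every DOX library was below every Saline and every DOX + K35 library, and DOX library B4 was the lowest. *Fga* rose in DOX + K35 against DOX by 2.07 (SE 0.51, adjusted p = 0.00611), while its difference in DOX against Saline, -1.86 (SE 0.51, adjusted p = 0.0612), had the second smallest unadjusted p of the set but did not pass.

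*F2*, prothrombin, was at 796, 799.9 and 617 FPKM (Saline), 560.4, 333 and 158 (DOX), 892, 974 and 726 (DOX + K35) and 773, 689 and 470.3 (DOX + K27). *Plg*, plasminogen, was at 738, 714 and 696 FPKM with Saline, 534, 303 and 142 with DOX alone, 790, 867 and 816 with added K35 and 699.5, 657 and 425 with added K27. For both genes every DOX library lay below every Saline library and every DOX + K35 library above every DOX library. In DOX + K35 against DOX, *F2* rose by 1.47 (SE 0.42, adjusted p = 0.00957) and *Plg* by 1.53 (SE 0.42, adjusted p = 0.00839). The differences of *F2* and *Plg* in DOX against Saline were -1.24 (SE 0.42, adjusted p = 0.0612) and -1.33 (SE 0.42, adjusted p = 0.0612). *F13b*, the carrier subunit of the fibrin-crosslinking factor XIII, rose in DOX + K35 against DOX by 1.84, *F5*, the cofactor of factor Xa, by 1.15, *Pros1*, the anticoagulant protein S, by 1.11 and *Kng2*, a kininogen, by 0.91, with adjusted p from 0.00561 to 0.0346. The higher direction in DOX + K35 and the lower direction in DOX held for 7 of 7 genes under every scaling tried. The calls in DOX + K35 against DOX did not all hold with the replicate number as a block, a fit that keeps 1 DOX library.

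Of 8 complement genes tested, 5 rose in DOX + K35 against DOX and none fell (62.5% rose, where 46% of all genes tested rose and 10.7% fell). *C3*, on which the classical, lectin and alternative pathways converge, was at 1195, 1141 and 1173 FPKM (Saline), 739.8, 440.1 and 169.7 (DOX), 1638, 2165 and 1469 (DOX + K35) and 1086, 954 and 598 (DOX + K27). The 4 groups followed the order DOX, DOX + K27, Saline and DOX + K35 in their means, and only the neighbours DOX and DOX + K27 overlapped. *C3* rose in DOX + K35 against DOX by 2.18 (SE 0.46, adjusted p = 0.00516), and its difference in DOX against Saline was -1.62 (SE 0.46, adjusted p = 0.0612). *Cfi*, the protease that inactivates C3b, was at 196, 109 and 37.0 FPKM in DOX and 311, 357 and 266 in DOX + K35, a rise of 1.73 (SE 0.48, adjusted p = 0.00879). In DOX against Saline (266, 242 and 243 FPKM), *Cfi* differed by -1.42 (SE 0.48, adjusted p = 0.0612) without overlap.

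*Cfb*, the protease of the alternative pathway convertase, was at 427, 395 and 482 FPKM with Saline, 329, 295 and 142 with DOX alone, 459, 482 and 353 with added K35 and 399.8, 353 and 343 with added K27. Its changes were 0.83 (SE 0.35, adjusted p = 0.0576) in DOX + K35 against DOX and -0.85 (SE 0.35, adjusted p = 0.0783) in DOX against Saline, and neither passed. The transcripts of *Cfb* share 81.4% of their 50-base stretches with the readthrough gene *Gm20547*. *C1ra*, a protease of the C1 complex, and *C1rl*, a C1r-like protease, rose in DOX + K35 against DOX by 1.19 and 1.18, although *C1ra* shares 50.8% of its 50-base stretches with *C1rb*. The terminal pathway genes gave no call. *C8g* was at 159.5 ± 61.4 FPKM in DOX and 154 ± 30.5 in DOX + K35, and *C9* was at 98.1, 97.0 and 13.1 FPKM in the DOX + K35 libraries, low in library C4 alone. *C1s2* was listed at 0.118 to 2.23 FPKM over the 12 libraries and was not tested.

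All 3 inter-alpha-inhibitor heavy chain genes rose in DOX + K35 against DOX, where 46% of all genes tested rose. *Itih4* was at 392.5, 319.9 and 431 FPKM (Saline), 212, 136 and 50.9 (DOX), 529, 668 and 468 (DOX + K35) and 319.9, 285 and 164 (DOX + K27). Its DOX + K35 libraries were above all others, and its DOX libraries were below all Saline libraries. The rise in DOX + K35 against DOX was 2.26 (SE 0.46, adjusted p = 0.00499). In DOX against Saline the difference was -1.72 (SE 0.46, adjusted p = 0.0612), with the smallest unadjusted p of the set (0.0021). *Itih1* rose in DOX + K35 against DOX by 1.24 (SE 0.38, adjusted p = 0.0133) and *Itih3* by 1.42 (SE 0.45, adjusted p = 0.0142). *Itih3* was at 157, 161 and 415 FPKM in Saline and 238, 257 and 571 in DOX + K35, so that Saline replicate 3 and DOX + K35 library C4 were well above the rest of their groups, and its difference in DOX against Saline was -0.85 (SE 0.45, adjusted p = 0.143). The difference of *Itih1* in DOX against Saline was -0.94 (SE 0.38, adjusted p = 0.0738).

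Of the serpins, 5 of 13 rose in DOX + K35 against DOX (38.5%, where 46% of all genes tested rose). *Serpina3m* and *Serpina3n* belong to the murine antichymotrypsin cluster of chromosome 12, whose members share sequence (19.1% and 6.90% of 50-base stretches with another gene), and *Serpina3k* overlaps *Serpina3m*. *Serpina3m* was at 114, 116 and 112 FPKM with Saline, 75.3, 45.9 and 27.1 with DOX alone, 185, 219 and 321 with added K35 and 101, 109.6 and 64.5 with added K27. Its DOX + K35 libraries were above every other library and its rise against DOX was 2.35 (SE 0.39, adjusted p = 0.00496). *Serpina3n*, an acute phase gene, was at 113, 105 and 262 FPKM (Saline), 105, 58.0 and 30.8 (DOX), 189, 224 and 515 (DOX + K35) and 154, 146 and 99.7 (DOX + K27). It rose in DOX + K35 against DOX by 2.27 (SE 0.51, adjusted p = 0.00563), with library C4 the highest, and Saline replicate 3 was above the rest of the Saline group. The differences of *Serpina3m* and *Serpina3n* in DOX against Saline were -1.31 (SE 0.39, adjusted p = 0.0612) and -1.34 (SE 0.51, adjusted p = 0.0666).

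*Serpina3k* was the most abundant serpin, at 979, 1538 and 1777 FPKM with Saline, 2152, 861 and 321 with DOX alone, 2369.6, 2364 and 5291 with added K35 and 1632, 2634 and 2169 with added K27. Its rise in DOX + K35 against DOX, 1.88 (SE 0.56, adjusted p = 0.0119), came with wide spread, since DOX replicate 1 lay near DOX + K35 replicates 1 and 2 while B3 and B4 were far below and C4 far above. With the replicate number as a block, a fit over the 9 numbered libraries that keeps 1 DOX library, the change was -0.0855. *Serpinf2*, alpha-2-antiplasmin, and *Serpinb9* rose by 1.46 and 0.89. *Serping1*, the C1 inhibitor, was at 298, 187 and 80.2 FPKM in DOX against 393, 376 and 689 in Saline, a difference of -1.49 (SE 0.46, adjusted p = 0.0612), and at 371, 437 and 249 in DOX + K35, a difference from DOX of 1.05 (SE 0.46, adjusted p = 0.0641).

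*Serpina6*, the corticosteroid-binding globulin, was at 649.6, 608 and 371 FPKM (Saline), 332, 312 and 174 (DOX), 430.5, 459 and 15.0 (DOX + K35) and 528, 366 and 278 (DOX + K27). Library C4 was far below the other DOX + K35 libraries, which lay above all DOX libraries, and no comparison of *Serpina6* passed. In the same library the ratio of *Serpina3n* to *Serpina6* was 34.3, against 0.439 and 0.487 in DOX + K35 replicates 1 and 2 and 0.173 to 0.705 in Saline. *Serpina1e*, an alpha-1-antitrypsin paralog that shares 35.6% of its 50-base stretches with *Serpina1b*, was at 265, 117 and 31.3 FPKM (DOX), 289.8, 303 and 173 (DOX + K35) and 244, 332 and 359 (DOX + K27). Its changes against DOX were 1.31 (SE 0.57, adjusted p = 0.0615) with K35 and 1.62 (SE 0.57, adjusted p = 0.155) with K27. *Serpina7*, the thyroxine-binding globulin, was at 23.4 ± 5.70 FPKM in Saline and 8.84 ± 4.36 in DOX and was not called anywhere. *Serpinh1* and *Serpina12*, an adipokine, had means of 3.80 ± 0.659 and 1.74 ± 0.692 FPKM in Saline and 5.70 ± 1.79 and 3.40 ± 1.98 in DOX, and neither passed. *Serpina3g*, at 7.19 ± 7.15 FPKM in Saline and 3.07 ± 0.507 in DOX, was highest in Saline replicate 3 and was not called.

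**Figure D2:**
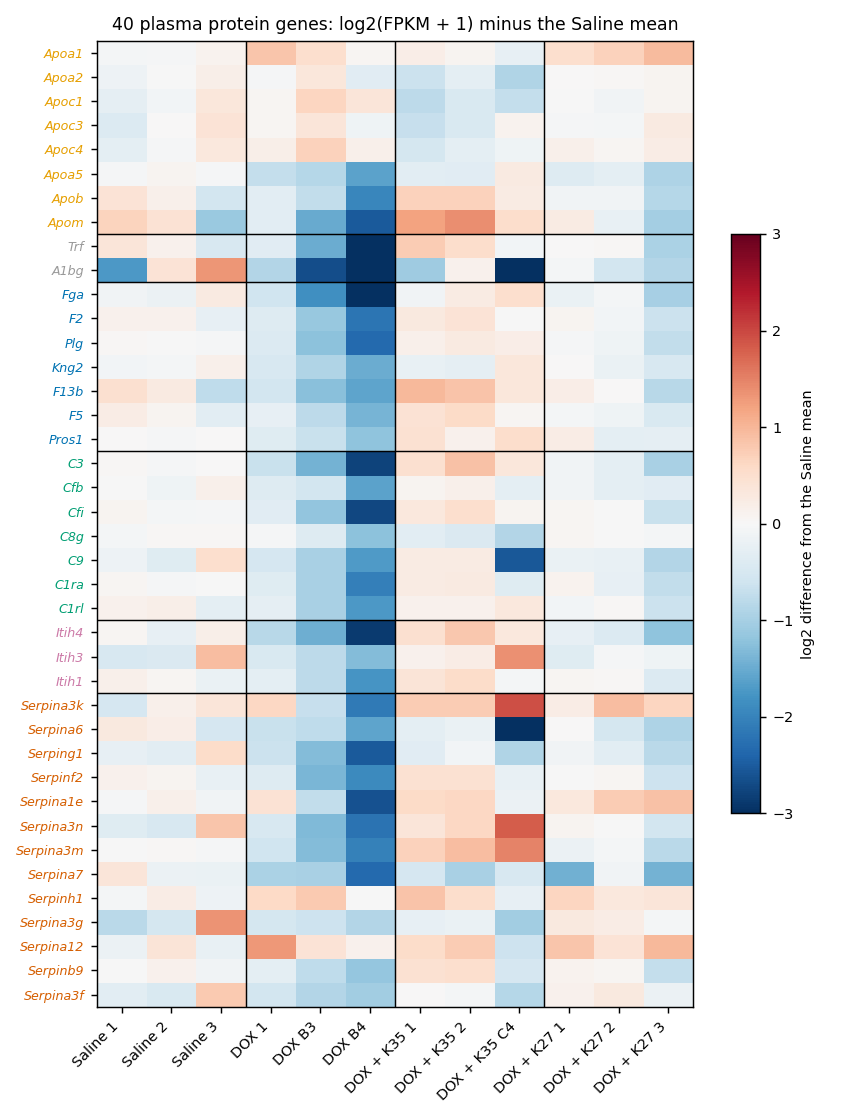
The level of 40 of the 41 tested plasma protein genes (rows, coloured by class) in each of the 12 libraries (columns), as log2(FPKM + 1) minus the mean of the 3 Saline libraries, with values beyond 3 in either direction drawn in the end colours. Most rows are below the Saline mean in DOX, most of all in library B4. On average over the DOX libraries, *Apoa1* (0.46), *Apoc1* (0.36), *Apoc4* (0.34) and *Apoc3* (0.10) are above it and *Apoa2* (-0.011) is near it.

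**Figure D3:**
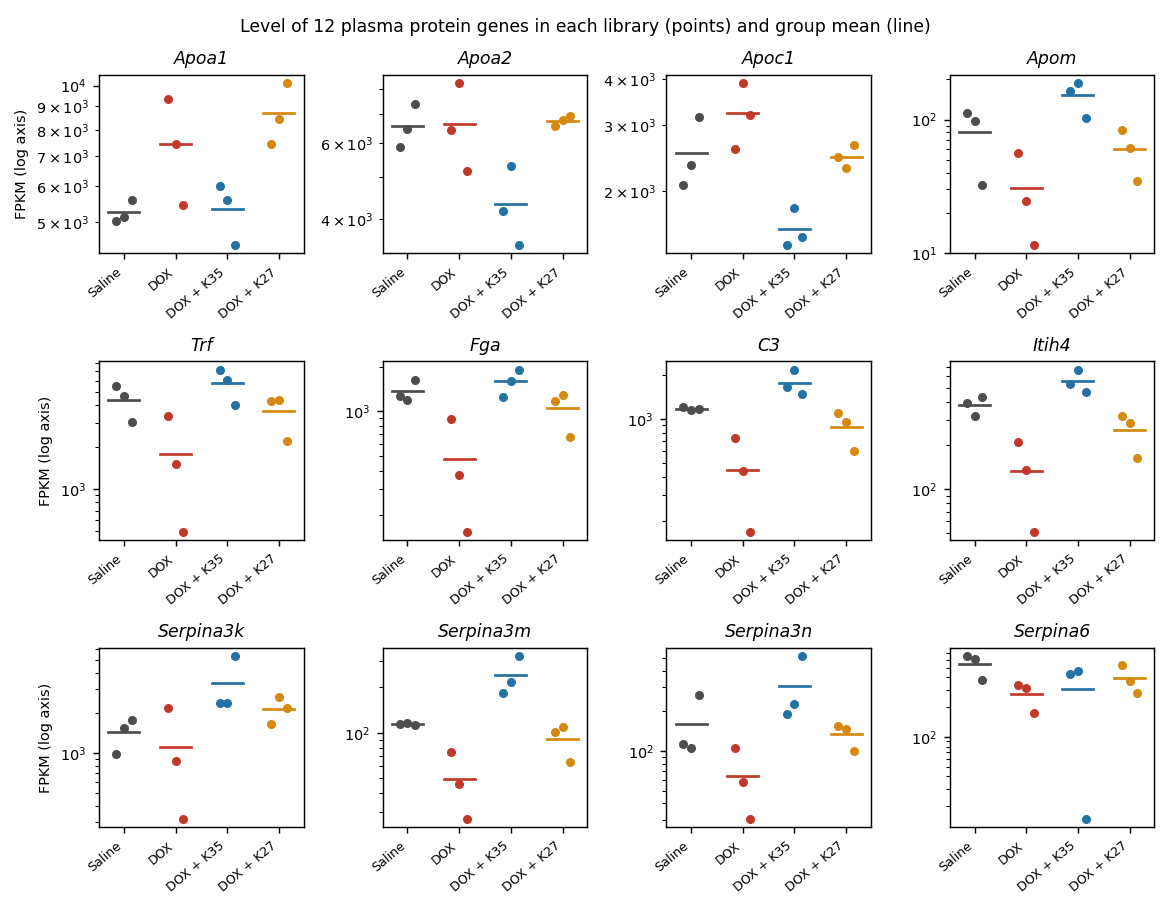
FPKM of 12 plasma protein genes on log axes, with 1 point per library and a line at the mean of each group of 3 libraries. *Apoc1* is lowest in DOX + K35, *C3*, *Itih4* and *Serpina3m* are highest there, and *Serpina6* has 1 DOX + K35 library at 15.0 FPKM.

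The comparison of DOX with Saline asks what doxorubicin did to these genes. Means were lower in DOX for 35 of 41 plasma protein genes, and the libraries did not overlap for 22 of them, all lower in DOX (53.7%, where 23% of all genes tested were lower without overlap). The median log2 fold change was -1.0, or -0.67 relative to all genes. Clotting and fibrinolysis genes (median -1.13), complement genes (-1.10), inter-alpha-inhibitors (-0.94) and serpins (-0.97) were lower, and the apolipoprotein median was 0.045. In bulk tissue, fewer hepatocytes, less RNA per hepatocyte and a larger share of other transcripts cannot be told apart. Mitochondrially encoded transcripts averaged 53.0% of the summed FPKM in Saline and 73.6% in DOX, and their part in the lower values was not tested. None of the 41 genes passed the adjusted threshold, as 0.181% of all genes tested did (6 of 3317), while 26 of the 41 (63.4%) had an unadjusted p under 0.05 and a lower value, where 40.1% of all genes did. The count past the adjusted threshold turned on single libraries and on the scaling, and the share of all genes that passed under these settings is not given here. The count was 28, all lower, without DOX replicate 1 and 13, all lower, without Saline replicate 3. With median-ratio scaling it was 16, all lower, with the sum without the 20 highest genes as the scale 5 higher and 4 lower, and with the replicate number as a block 1 higher and 3 lower.

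The comparison of DOX + K35 with DOX asks what K35 changed in doxorubicin-treated liver. Of 41 plasma protein genes, 24 rose and 1 fell (58.5% and 2.44%, where 46% of all genes tested rose and 10.7% fell), and 16 did not pass. The risers were all 7 clotting and fibrinolysis genes, all 3 inter-alpha-inhibitors, 5 of 8 complement genes, 5 of 13 serpins, *Trf* and the apolipoproteins *Apoa5*, *Apob* and *Apom*. The median log2 fold change was 1.15, or 0.70 relative to all genes, and by class it was 1.47 for clotting and fibrinolysis, 1.42 for inter-alpha-inhibitors, 1.19 for complement, 0.89 for serpins and -0.45 for apolipoproteins. DOX + K35 and DOX libraries did not overlap for 24 genes that were higher with K35 and 2 that were lower (44.3% and 15.4% of all genes). The split of calls moved with the scaling, to 22 higher and 5 lower with median-ratio factors, 22 and 4 with the nuclear sum, 18 and 4 after quantile normalization, and 15 and 8 when scaled to the sum without the 20 highest genes. With the replicate number as a block it was 15 higher and 5 lower, and the median relative to all genes was 0.35. Without libraries B4 and C4 the split was 20 higher and 3 lower, and without B3, B4 and C4, which leaves 1 DOX library, no gene passed. The shares of all genes called under these other settings are not given here. The DOX libraries serve in both this comparison and the previous, so the opposite signs of the same gene in both are not independent.

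The comparison of DOX + K27 with DOX asks the same of the analog. Means were higher with K27 for 37 of 41 plasma protein genes, with a median log2 fold change of 0.83, or 0.47 relative to all genes, and the libraries did not overlap for 6, all higher with K27 (14.6%, where 15.9% of all genes were higher without overlap). No plasma protein gene passed, as 0.0603% of all genes did (2 of 3317), and 19 had an unadjusted p under 0.05, all higher (46.3%, where 28% of all genes did). The smallest unadjusted p belonged to *Serpina3f*, at 0.916, 0.542 and 0.370 FPKM in DOX and 2.10, 2.45 and 1.49 in DOX + K27 (log2 fold change 0.91 (SE 0.31, adjusted p = 0.155)), and to *Serpina1e*. *Fga* differed by 1.44 (SE 0.51, adjusted p = 0.155), *Trf* by 1.35 (SE 0.56, adjusted p = 0.156) and *C3* by 1.16 (SE 0.46, adjusted p = 0.155). *Itih4* differed by 1.11, *Plg* by 1.03, *F2* by 1.02, *Cfi* by 1.22, *Serping1* by 1.09, *Serpina3n* by 1.18, *Serpina3m* by 0.96 and *Itih1* by 0.83. Without DOX replicate 1 the count was 22, all higher, and the share of all genes that passed in that setting is not given here.

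K35 and K27 were given at the same dose and on the same schedule, so their groups can be compared directly, as the single pair of compounds in the series. Means were higher with K35 for 26 genes and lower for 15, with a median of 0.41, or 0.31 relative to all genes, and the libraries of the compounds did not overlap for 12 genes higher and 6 lower with K35 (29.3% and 14.6%, where 30.6% and 18.9% of all genes did so). None of the 41 genes passed, where 2.11% of all genes did (70 of 3317), and 6 were higher and 3 lower at an unadjusted p under 0.05 (14.7% and 13.6% of all genes). The smallest adjusted p was that of *Serpina3m*, whose difference was 1.39 (95% interval 0.56 to 2.21, adjusted p = 0.069). *Itih4* differed by 1.15 (95% interval 0.17 to 2.14, adjusted p = 0.144), *Apom* by 1.37 (95% interval 0.16 to 2.58, adjusted p = 0.151), *C3* by 1.02 (95% interval 0.045 to 2.0, adjusted p = 0.168) and *Serpina3n* by 1.09 (95% interval 0.0039 to 2.17, adjusted p = 0.176). The opposite sign was seen for *Apoa1* at -0.70 (95% interval -1.32 to -0.074, adjusted p = 0.152) and *Apoa2* at -0.66 (95% interval -1.28 to -0.045, adjusted p = 0.163). It was also seen for *Apoc1* at -0.65 (95% interval -1.29 to -0.0083, adjusted p = 0.174). For *F2* the difference was 0.44 (95% interval -0.45 to 1.34, adjusted p = 0.41), for *Trf* 0.70 (95% interval -0.49 to 1.89, adjusted p = 0.34) and for *Fga* 0.63 (95% interval -0.46 to 1.72, adjusted p = 0.346), intervals that leave room for a change in either direction. With the replicate number as a block the count was 12 higher and 5 lower with K35, from 2 numbered DOX + K35 libraries, and without DOX library B4 it was 2, both higher. The share of all genes that passed in these settings is not given here.

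Against Saline, no plasma protein gene passed in either compound group, where 0.181% of all genes passed with K35 and 0.121% with K27. With K35 the median was 0.21 (0.084 relative to all genes) and 1 gene was higher and 1 lower at an unadjusted p under 0.05 (10.4% and 6.18% of all genes). With K27 the median was -0.22 relative to all genes, with 1 gene higher and 1 lower (4.79% and 1.15% of all genes). With the block, 1 gene passed as higher in DOX + K35 than in Saline, and the share of all genes that passed in that setting is not given here.

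**Figure D4:**
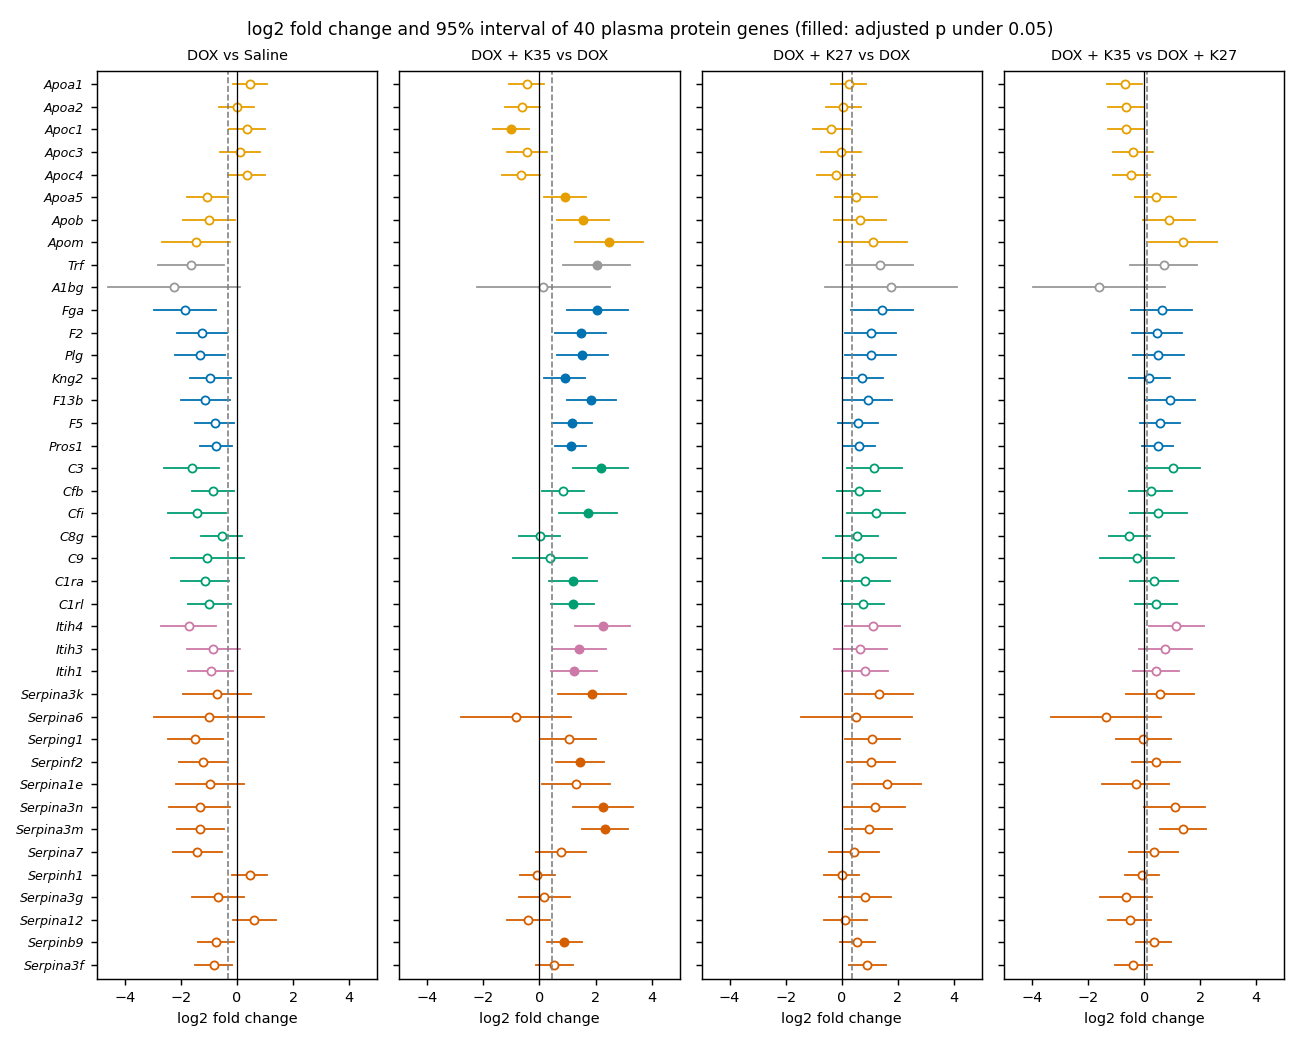
log2 fold change (circles) with 95% interval (lines) of 40 of the 41 tested plasma protein genes in 4 comparisons, coloured by class, with filled circles for an adjusted p under 0.05 and a dashed line at the median of all 3317 genes tested. Filled circles appear in the DOX + K35 against DOX panel alone, 23 to the right of 0 and *Apoc1* to the left.

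The small apolipoproteins also have some of the shortest transcripts of the set. *Apoa2*, *Apoc1*, *Apoc4*, *Apoc3* and *Apoa1* have 518, 532, 538, 709 and 1035 annotated bases, and all 5 were above the median of all genes in DOX against Saline and below it in DOX + K35 against DOX. *Apom*, with 1013 bases, went with the long genes. Across the 41 genes, Pearson's r of the log2 fold change with the log10 length was -0.40 in DOX against Saline and 0.52 in DOX + K35 against DOX. Across the 154 other nuclear genes that averaged 100 FPKM or more it was -0.32 and 0.46, and Spearman's rho across the 41 genes was -0.20 and 0.39. Pearson's r across all 3129 genes of known length was 0.082 and 0.065. The genes of each set share their libraries, so these values are a description. The 29 other genes of at least 100 FPKM and at most 1000 bases had a relative median of 0.41 in DOX against Saline and -0.99 in DOX + K35 against DOX, beside 0.56 and -1.09 for the 4 plasma protein genes of that length. The 25 other genes of that level with over 1000 and up to 1500 bases had the opposite signs, at -0.76 and 0.85. *Apoa1* and *Apom* lie in that range of length, as does *C8g* (1150 bases), whose relative changes were -0.21 and -0.45. With the length trend removed, 19 plasma protein genes passed as higher and 3 as lower in DOX + K35 against DOX. In DOX against Saline 2 passed as higher and 5 as lower. The share of all genes that passed in that setting is not given here. The part of transcript length in the apolipoprotein pattern was not tested.

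**Figure D5:**
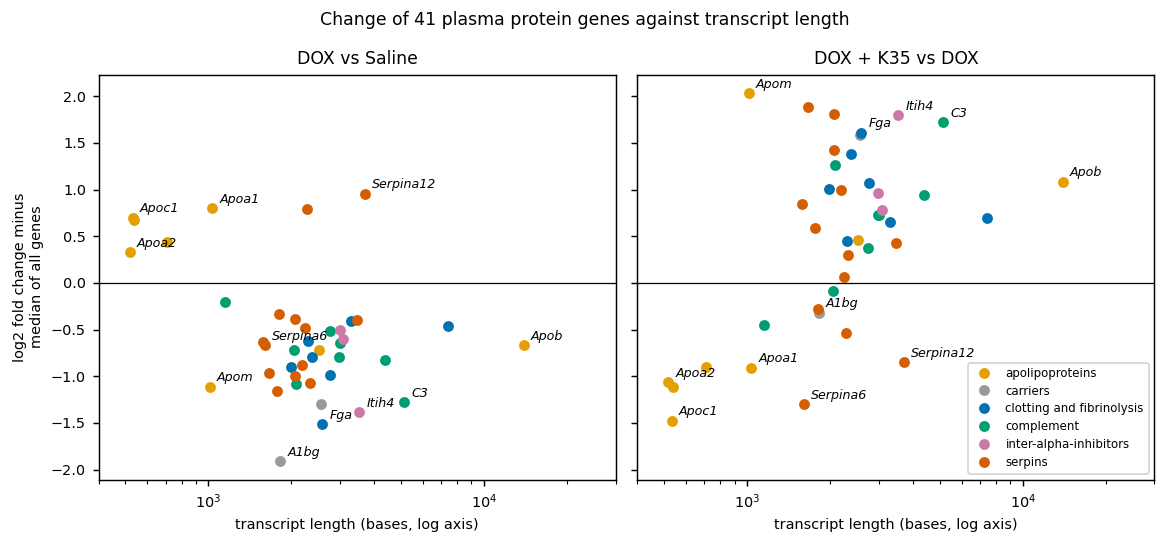
Relative log2 fold change of the 41 tested plasma protein genes against transcript length in bases (log axis), in DOX against Saline and in DOX + K35 against DOX, coloured by class. The genes under 1000 bases lie above 0 in the left panel and below 0 in the right, and *Apom* does not follow them.

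A list of 81 other secreted liver products was also counted. Of 25 such genes in the table, 17 rose (68.0%, where 46% of all genes tested rose) and none fell in DOX + K35 against DOX, and their median was 0.79 relative to all genes. *Fgg*, the gamma chain of fibrinogen, followed *Fga*, with a ratio of *Fga* to *Fgg* of 0.748 to 0.790 with Saline, 0.661 to 0.717 with DOX alone, 0.780 to 1.01 with added K35 and 0.701 to 0.743 with added K27. *Mug1*, a murinoglobulin protease inhibitor, was among those with the smallest p and was at 149, 80.3 and 75.8 FPKM in DOX and 358, 345 and 308 in DOX + K35. In DOX + K27 against DOX, *Angptl4*, an inhibitor of lipoprotein lipase, was the single one to pass, at 15.9, 10.7 and 21.2 FPKM in DOX and 51.7, 82.3 and 58.8 in DOX + K27. The acute phase gene *Saa1* was at 1117 FPKM in Saline replicate 3 and between 6.21 and 31.3 FPKM in the other 11 libraries, and *Lrg1* was at 1345 FPKM in Saline replicate 3 and 1028 in DOX + K35 library C4 against 63.7 to 332 elsewhere, the libraries in which *Itih3* and *Serpina3n* were also high.

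Of 20 listed regulators of plasma protein genes, 5 were in the table. *Stat3*, the interleukin-6 receptor genes *Il6st* and *Il6ra*, and *Foxa3* rose in DOX + K35 against DOX, with *Stat3* at 9.85, 8.49 and 5.47 FPKM in DOX and 16.7, 23.2 and 23.1 in DOX + K35. None of the 5 passed in DOX against Saline or in DOX + K27 against DOX. The 6 hepatocyte markers all rose in DOX + K35 against DOX, with a median of 1.60 (46% of all genes tested rose), and summed to 7349.8, 7716 and 5635 FPKM with Saline, 4936, 3289 and 1509 with DOX alone, 7797, 7527 and 8434 with added K35 and 6482, 7052 and 4042 with added K27, so hepatocyte genes that encode no plasma protein moved with the set.

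Of the markers of other cells, 4 of 5 erythroid markers were in the table and all fell in DOX + K35 against DOX (10.7% of all genes tested fell), with sums of 821, 908 and 1135 FPKM in DOX and 369, 596 and 62.2 in DOX + K35. The 5 of 8 Kupffer cell markers present all rose, from sums of 6.98 to 21.0 FPKM in DOX to 26.4 to 43.8 in DOX + K35, as did both endothelial markers present of 6 (46% of all genes tested rose), while the 2 of 6 stellate and 1 of 5 platelet markers did not pass. Neutrophil, lymphocyte and adipocyte markers are not analysed here. The part of cell composition in the plasma protein pattern was not tested.

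Promoter sequence is shown for 6 genes that cover both directions, as the 250 bases before the RefSeq start on GRCm38.p6. The table of promoters held 31 of the 42 genes. Capitals mark a match, on either strand, to the HNF1 motif GTTAAT, the C/EBP motif TTGCNNAA or the STAT motif TTCNNNGAA. *Fga* (chr3:83025903-83026152, + strand), *Itih4* (chr14:30886226-30886475, + strand), *C3* (chr17:57228137-57228386, - strand) and *Apom* (chr17:35131802-35132051, - strand) rose in DOX + K35 against DOX. *Apoa1* (chr9:46228380-46228629, + strand) and *Apoa2* (chr1:171224804-171225053, + strand) did not.
Fga: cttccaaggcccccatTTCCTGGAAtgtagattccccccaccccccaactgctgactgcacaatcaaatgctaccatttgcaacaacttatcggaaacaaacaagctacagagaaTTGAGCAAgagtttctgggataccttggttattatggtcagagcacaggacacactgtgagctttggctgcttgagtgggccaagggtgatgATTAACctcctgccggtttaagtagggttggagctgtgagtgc
Itih4: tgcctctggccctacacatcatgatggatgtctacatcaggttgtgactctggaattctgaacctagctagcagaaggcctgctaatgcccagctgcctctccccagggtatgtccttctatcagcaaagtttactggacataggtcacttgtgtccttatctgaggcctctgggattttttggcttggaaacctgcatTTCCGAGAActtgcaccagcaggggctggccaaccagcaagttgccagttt
C3: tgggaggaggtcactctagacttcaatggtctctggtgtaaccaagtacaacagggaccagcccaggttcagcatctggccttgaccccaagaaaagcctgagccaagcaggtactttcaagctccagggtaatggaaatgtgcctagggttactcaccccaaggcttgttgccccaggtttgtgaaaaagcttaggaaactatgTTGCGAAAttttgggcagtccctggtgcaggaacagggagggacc
Apom: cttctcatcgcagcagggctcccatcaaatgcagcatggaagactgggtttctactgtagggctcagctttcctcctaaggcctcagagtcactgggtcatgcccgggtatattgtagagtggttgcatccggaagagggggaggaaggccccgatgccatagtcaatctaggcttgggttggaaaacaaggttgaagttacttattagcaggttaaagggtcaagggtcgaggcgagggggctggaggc
Apoa1: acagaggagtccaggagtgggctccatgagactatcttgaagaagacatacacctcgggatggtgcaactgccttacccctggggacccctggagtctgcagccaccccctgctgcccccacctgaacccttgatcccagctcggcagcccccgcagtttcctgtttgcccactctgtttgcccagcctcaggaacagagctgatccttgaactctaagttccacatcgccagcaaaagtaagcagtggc
Apoa2: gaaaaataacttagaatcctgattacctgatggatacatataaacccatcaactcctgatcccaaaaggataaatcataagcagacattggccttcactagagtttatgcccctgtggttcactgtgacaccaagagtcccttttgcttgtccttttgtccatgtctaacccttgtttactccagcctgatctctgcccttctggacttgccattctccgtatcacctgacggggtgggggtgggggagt

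*Fga* held a match to each of the 3 motifs, with the HNF1 motif 43 to 38 bases before the start, the C/EBP match 135 to 128 bases before it and the STAT match 234 to 226 bases before it. *Itih4* held a STAT match 51 to 43 bases before its start and *C3* a C/EBP match 45 to 38 bases before its start. No capitals appear in *Apom*, *Apoa1* or *Apoa2*, which says that these letters are not in these windows. In the GENCODE annotation *Apom* starts at base 35132050, so nearly all of its window lies inside the gene and not before it. Part of the windows of *Fga* and *Apoa1* also lies inside the gene, with GENCODE starts at 83026076 and 46228580. The HNF1 motif occurred in 7 of 31 plasma protein genes and 6.52% of 27025 genes with a promoter in the table, the C/EBP motif in 11 of 31 and 9.55%, and the STAT motif in 6 of 31 and 7.18%. A match is a description of the letters and not of binding.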

How the data were processed

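Liver mRNA was poly-T-selected and sequenced in 12 libraries, 3 per group, each from a separate mouse, so p-values measure the spread between these mice. The authors deposited 1 table of selected genes, whose header names no unit and whose values were read as FPKM per library. The submitters' processing notes name GRCm38, HISAT2, DESeq2 and edgeR without role or version, and the counting method is not given in the sources used here. Columns B3, B4 and C4 carry no replicate number that the labels share, and were used by group.

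Genes that averaged 1 FPKM or more were tested with limma 3.58.1 in R 4.3.3 on log2(FPKM + 1), with a mean-dependent prior, 1 term per group, Benjamini-Hochberg adjustment over all genes tested within each comparison and a threshold of 0.05. The fit was tested on simulated data. Tables and figures were made with Python 3.11.15, pandas 2.3.3, numpy 2.4.6 and matplotlib 3.10.9. Positions, lengths and shared 50-base stretches came from GENCODE M21 on GRCm38, and promoters from RefSeq. Named genes were the 3 with the highest mean in each class, the largest passing rises and falls in each comparison, and the 2 smallest p where none passed, and other members were added to account for the set after their values were seen. The members and lists were chosen with earlier results of these data known.

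The fits reported had no replicate block, and a block on the replicate number, over the 9 numbered libraries, was an alternative. Deviations from the group means correlated between 0.109 and 0.474 for same-numbered libraries, and between -0.679 and 0.558 for differently numbered ones, so same-numbered libraries deviated together without standing apart from the rest. Other scalings, filters, pseudocounts and left-out libraries were tried, and those without several libraries or with the length trend removed were chosen after seeing the data. Some genes that entered the fits and counts are not reported here by name.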

Additional observations from a re-analysis of the deposited data

How the results depend on the processing

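The count of plasma protein genes past the threshold, given here without the matching count over all genes, depended on scaling and on single libraries. In DOX against Saline (0 genes) it was 16 with median-ratio scaling, 3 after quantile normalization, 9 when scaled to the sum without the 20 highest genes, 4 with the replicate block, 7 with the length trend removed, 11 without Saline replicate 3 and libraries B4 and C4, and 0 to 28 with 1 library left out. In DOX + K35 against DOX (25 genes) it was 16 at an adjusted p under 0.01, 0 without libraries B3, B4 and C4, which leaves 1 DOX library, and 20 to 28 with 1 library left out. In DOX + K27 against DOX (0 genes) it was 0 to 22 with 1 library left out, and the relative median of 0.47 became 0.069 with the replicate block and 0.086 without libraries B3, B4 and C4. In DOX + K35 against DOX + K27 (0 genes) it was 1 with median-ratio scaling, 3 after quantile normalization, 1 without the 20 highest genes in the scale, 1 with the length trend removed, 17 with the replicate block, 5 without libraries B4 and C4, 9 without those and Saline replicate 3, 4 without B3, B4 and C4, and 0 to 2 with 1 library left out. Against Saline, 1 gene passed in DOX + K35 with the replicate block and 1 in DOX + K27 without Saline replicate 3 and libraries B4 and C4. The cause of these shifts was not tested.

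The difference in the plasma protein share of nuclear expression was 0.357 percentage points in DOX against Saline, -1.52 without the 20 highest genes, -4.46 with mitochondrial genes kept and -1.14 to 3.27 with 1 library left out. In DOX + K35 against DOX it was -0.181, 2.73, 7.28 and -3.09 to 1.32 in the same order. In DOX + K27 against DOX it was 2.10, and -0.805 to 3.60 with 1 library left out. In DOX + K35 against DOX + K27 it was -2.28, 1.40 without the 20 highest genes, 2.77 with mitochondrial genes kept and -2.83 to -1.74 with 1 library left out. In DOX + K35 against DOX, *Apoa1* turned to 0.37 and *Apoa2* to 0.078 after quantile normalization, *Apoa2* to 0.045 with the length trend removed and *Serpina3k* to -0.0855 with the replicate block. Over the 76 single-gene differences recomputed, 1610 other values kept their direction and side of the threshold, 96 lost a call and 114 gained one. Members outside these 76 turned too, since with median-ratio scaling 1 carrier and 1 complement gene were lower in DOX + K35 than in DOX, and 0 of either without it. A scale with albumin left out was not run, because albumin is not analysed here. The unknown depth limits the genes under a few FPKM, such as *Serpina3f* and *Serpinb9*.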
